A study of Mus musculus with 2 samples.

Results

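The genes described here are the 36 aminoacyl-tRNA synthetase genes found by symbol among the 47643 Ensembl genes of both count files. They were taken from a fixed list of enzyme names and matched through GENCODE M21, and 20 of them encode cytosolic enzymes and 16 mitochondrial ones. Messenger RNA was sequenced from E14 mouse embryonic stem cells of 129/Ola background whose label gives both Ago1 and Ago2 as knocked out. These genes encode Argonaute proteins, which carry out repression by microRNAs. There were 2 libraries of this 1 genotype, called replicate 1 and replicate 2 after the labels, from cells kept in 15% serum with 100 U/mL of the self-renewal cytokine LIF on 0.2% gelatine. No unmodified cells are part of the comparison, so no effect of the knockout can be read from the values below. Separate clones or cultures are not named in the labels, so p-values measure only the spread or counting error of these libraries, which may be technical.

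Aminoacyl-tRNA synthetases join each amino acid to its own transfer RNA, the step that fixes the genetic code before the ribosome reads it. Cytosolic and mitochondrial translation use separate sets of enzymes, all encoded in the nucleus, and for most amino acids 1 gene serves each compartment. Gars (glycine) and Kars (lysine) each make enzyme for both compartments and were counted with the cytosolic genes. Eprs carries the glutamate and the proline enzyme on 1 chain, whereas the mitochondrion uses Ears2 and Pars2. No mitochondrial glutamine enzyme is needed, because Ears2 loads glutamate onto that transfer RNA and an amidotransferase converts it. The enzymes fall into class I and class II by the fold of their catalytic domain, and part of the cytosolic set is held in the multisynthetase complex.

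Totals were 34798975 gene counts in replicate 1 and 29789560 in replicate 2, and 3 counts, taken as the floor, equal 0.0862 and 0.101 CPM (gene counts divided by the library total and scaled to 1 common sum). The targeted genes had reads in both libraries: Ago1 stood at 70.8 and 141 CPM and Ago2 at 124 and 129 CPM. The log2 ratio of replicate 2 over replicate 1 was 0.99 ± 0.04 (SE from counting error) for Ago1 and 0.06 ± 0.03 for Ago2. That of Ago1 was larger than the ratio of any of the 36 genes (at most 0.65). Both tests used below for the library comparison called Ago1, and neither called Ago2. Counts sum all exons of a gene, so these levels check no label. The 6 embryonic stem cell markers Pou5f1, Nanog, Sox2, Zfp42, Esrrb and Klf4 lay between 47.0 and 1748 TPM. Of 6 feeder fibroblast markers, Col3a1 and Lum had no count, Col1a2 and Dcn had at most 2 counts, Col1a1 had 0.859 and 1.28 TPM and Thy1 had 22.8 and 21.2 TPM. Levels are given in TPM, counts per exon length scaled to the same sum in each library, as mean ± SD over the libraries (n = 2) or as the value in replicate 1 and then in replicate 2.

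All 36 genes were expressed, taken as at least 1 CPM in both libraries, against 58.0% of protein-coding genes. At 1 TPM in both libraries all 36 passed as well, against 56.8%. The lowest count of any of them was 367, for the mitochondrial proline enzyme gene Pars2 in replicate 2. Together they took 0.739% of gene counts in replicate 1 (95% interval by the exact Clopper-Pearson method from 0.737 to 0.742%) and 0.752% in replicate 2 (from 0.749 to 0.755%). Cytosolic genes took 0.645 and 0.637%, and mitochondrial genes 0.0949 and 0.115%. These intervals cover counting error only.

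The main comparison asked how the cytosolic and mitochondrial enzymes differ in messenger level within each library. The cytosolic genes were the more abundant: their median was 179.5 TPM in replicate 1 and 178 TPM in replicate 2, against 15.8 and 12.9 TPM for the mitochondrial genes. Expressed protein-coding genes had a median of 17.5 and 17.2 TPM, so the mitochondrial median lay near theirs. The cytosolic genes lay between the 86.0 percentile (Farsa) and the 98.2 percentile (Gars) of these genes. The cytosolic median exceeded the mitochondrial one by 3.46 in replicate 1 and 3.70 in replicate 2 on the scale of log2(TPM + 1), a mean of 3.58 ± 0.16. The difference was larger than the spread between the libraries, but the members are not replicates and no test was made on them. Its size depended on the length used and on the genes kept. With the longest coding transcript in place of all exons it was 2.91 ± 0.04. By exon length but without the 13 genes whose exons overlap another gene it was 2.55 ± 0.05.

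**Figure D1:**
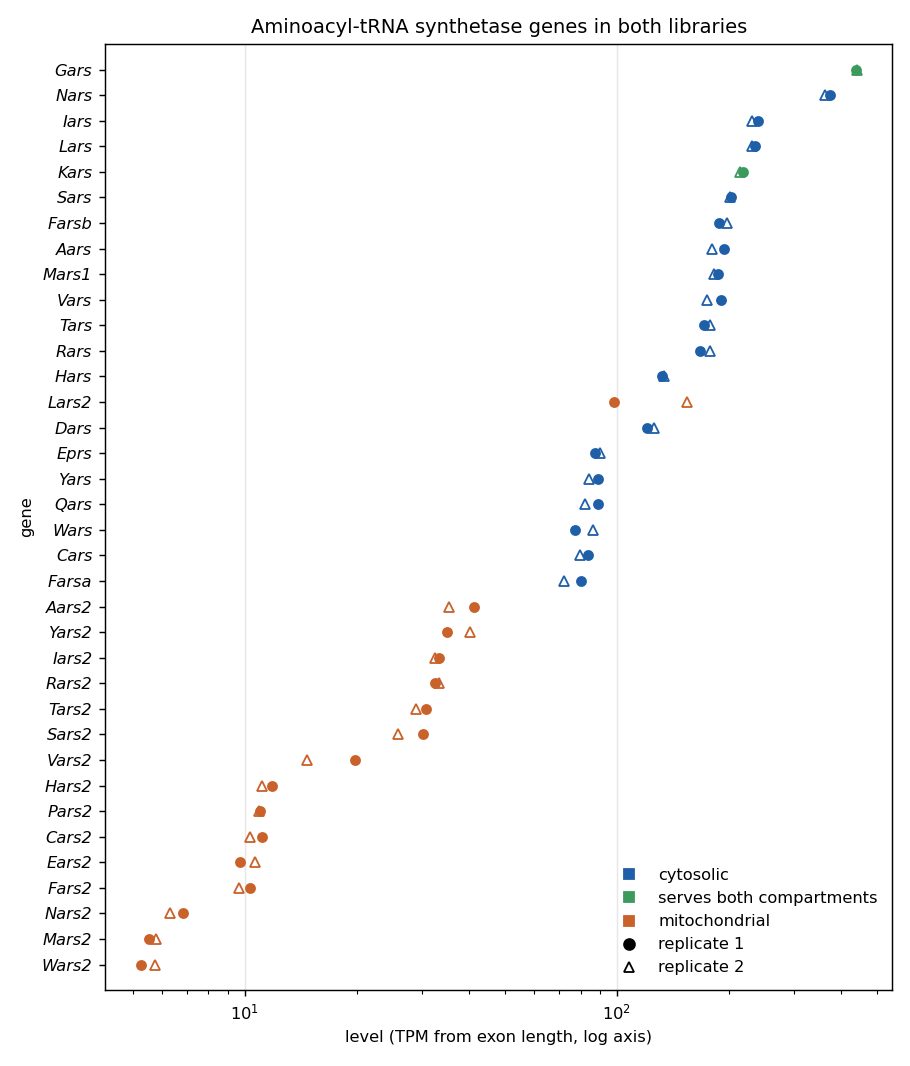
Level of each of the 36 genes in TPM from exon length (log axis) in replicate 1 (filled circles) and replicate 2 (open triangles), ordered by their mean and coloured by compartment. Lars2 is the one mitochondrial gene among the cytosolic ones, and its values, 98.5 and 154 TPM, lie apart from each other.

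The sets barely overlapped. The cytosolic gene with the lowest mean, Farsa, had 80.3 and 72.3 TPM, while Wars was the lowest in replicate 1 with 77.2 TPM. Of the 16 mitochondrial genes 1, Lars2, lay above both in each library. The next mitochondrial gene was Aars2, the alanine enzyme, with 41.4 and 35.5 TPM. Counted with coding transcript lengths the lowest cytosolic gene was Wars, the tryptophan enzyme, and Lars2 again was the only mitochondrial gene above it. In CPM, which are not scaled to length, Iars2 lay above Wars in replicate 1 (107 against 96.3 CPM) and below it in replicate 2 (105 against 108 CPM).

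Among the cytosolic genes, the glycine enzyme gene Gars (ENSMUSG00000029777, GRCm38 chromosome 6, 55038007 to 55079500, plus strand) was the highest, with 438 and 441 TPM, followed by the asparagine enzyme gene Nars with 374 and 364 TPM. Their order was the same in both libraries in TPM by exon length. With coding transcript lengths they did not differ beyond the spread between the libraries (419 ± 3.42 TPM for Gars and 425 ± 7.18 TPM for Nars). By exon length Gars and Nars lay at the 98.2 and 97.9 percentiles of expressed protein-coding genes. Kars, the other gene that serves both compartments, had 218 and 215 TPM.

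The 8 genes of the multisynthetase complex ran from 85.5 ± 4.67 TPM (Qars, glutamine) to 235 ± 6.28 TPM (Iars, isoleucine). Lars, the leucine enzyme, stood at 236 and 231 TPM and did not differ from Iars (239 and 231 TPM) beyond the spread between the libraries. Mars1 (methionine), Rars (arginine) and Dars (aspartate) came between, with 185 ± 3.56, 173 ± 7.19 and 123 ± 3.92 TPM. Eprs had only 88.7 ± 2.10 TPM by exon length but 238 ± 6.49 TPM by its coding transcript. Its annotated exons sum to 18102 bases while its longest coding transcript has 4906, so its place in the order depends on the length used. Complex members had a median of 178 and 180.2 TPM and the 12 cytosolic genes outside it 179.9 and 176 TPM, so the order of these medians differed between the libraries.

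Outside the complex, Sars (serine, 202 ± 0.311 TPM), Farsb (193 ± 6.92 TPM), Aars (alanine, 187 ± 9.83 TPM), Vars (valine, 182 ± 11.3 TPM) and Tars (threonine, 175 ± 4.73 TPM) formed a close group. From Farsb down to Rars, no gene differed from the next one in order beyond the spread between the libraries. Without scaling to length, Aars was the highest of all 36 genes in replicate 1 with 652 CPM, and in replicate 2 it had 608 CPM, below Lars2 with 621 CPM. Hars (histidine) had 133 ± 1.08 TPM. Yars (tyrosine, 86.6 ± 3.45 TPM), Wars (81.6 ± 6.29 TPM), Cars (cysteine, 81.6 ± 2.67 TPM) and Farsa (76.3 ± 5.64 TPM) were the lowest. Farsa and Farsb encode the subunits of 1 phenylalanine enzyme, and their values differed: Farsb was higher in both libraries, with 188 and 198 TPM against 80.3 and 72.3 TPM. By coding transcript length this gap shrank to 181 ± 7.12 against 138 ± 9.69 TPM. By catalytic fold, the 9 cytosolic class I genes had a median of 168 and 174 TPM and the 10 class II genes 191 and 189 TPM.

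The mitochondrial genes other than Lars2 spread from 5.50 to 38.5 TPM in their means. Aars2 (38.5 ± 4.18 TPM), Yars2 (37.7 ± 3.66 TPM), Iars2 (33.0 ± 0.557 TPM), Rars2 (32.9 ± 0.646 TPM), Tars2 (29.7 ± 1.29 TPM) and Sars2 (28.0 ± 3.0 TPM) were the highest. They load alanine, tyrosine, isoleucine, arginine, threonine and serine. Vars2, the valine enzyme, came next with 19.8 and 14.7 TPM. Below it were Hars2, Pars2, Cars2, Ears2 and Fars2, between 10.02 ± 0.468 and 11.5 ± 0.499 TPM, most of which could not be ordered beyond the spread between the libraries. Coding transcript lengths spread them wider, from 8.10 ± 0.0012 TPM for Pars2 to 29.7 ± 1.49 TPM for Cars2. Nars2 (6.57 ± 0.367 TPM), Mars2 (5.65 ± 0.190 TPM) and Wars2 (ENSMUSG00000004233, chromosome 3, 99141068 to 99239186, plus strand; 5.50 ± 0.342 TPM) were the lowest. Wars2 and Mars2, which load tryptophan and methionine, lay at the 23.0 and 23.4 percentiles of expressed protein-coding genes.

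Set against each other amino acid by amino acid, the cytosolic gene was higher in both libraries in all 17 pairings by exon length. Eprs was paired with Ears2 and with Pars2, and Fars2 with Farsa and with Farsb. The median log2 ratio of TPM + 1 over the pairings was 2.84 in replicate 1 and 2.92 in replicate 2. Asparagine had the widest gap, with Nars above Nars2 by 54.8-fold and 57.6-fold in TPM, followed by methionine, with Mars1 above Mars2 by 34.0-fold and 31.5-fold. These 2 mitochondrial genes were among the lowest of all and Nars was second of the cytosolic ones.

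By exon length the narrow end held alanine, arginine, tyrosine and leucine. Aars exceeded Aars2 by 4.69-fold and 5.08-fold, Rars exceeded Rars2 by 5.17-fold and 5.33-fold, and Yars exceeded Yars2 by 2.54-fold and 2.09-fold. Leucine had the smallest ratio in each library, with Lars 2.39-fold above Lars2 in replicate 1 and 1.5-fold in replicate 2. Its mean log2 ratio of 0.92 ± 0.47 and that of tyrosine, 1.18 ± 0.19, overlapped within their spread. By coding transcript length, Lars was 1.13-fold above Lars2 in replicate 1, and in replicate 2 the ratio was 0.710, so Lars2 was the higher. The proline pairing also moved with the length used: Eprs exceeded Pars2 by 7.92-fold and 8.23-fold by exon length and by 28.8-fold and 29.9-fold by coding transcript. For the other pairings the cytosolic gene was higher on every length scale used, CPM included.

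**Figure D2:**
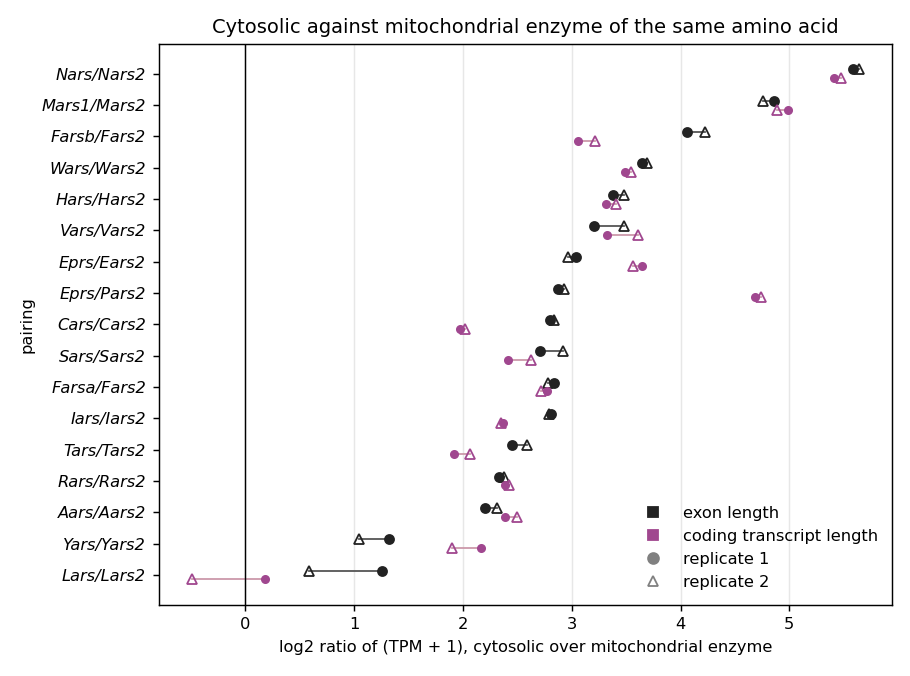
Log2 ratio of TPM + 1 of the cytosolic over the mitochondrial gene for each pairing in replicate 1 (circles) and replicate 2 (triangles), by exon length (black) and coding transcript length (purple). All black points lie to the right of 0, Nars/Nars2 reaches 5.61 ± 0.04, and Lars/Lars2 has the widest gap between the libraries.

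The libraries were then compared with each other for every gene. For each gene an exact binomial test, two-sided and with Benjamini-Hochberg adjustment over 19078 genes, asked whether the reads of these libraries differ by more than counting error. It compares libraries, not conditions. Of the 36 genes, 8 were higher and 9 lower in replicate 2, and 19 were not called. The 17 called genes were 47.2% of the members, beside 24.2% of all genes tested (11.2% higher and 13.1% lower). Among the 8358 genes with at least 1000 counts over both libraries, 39.5% were called (20.5% higher and 19.0% lower). This depth is nearer to that of the members, and the share over all 36 was nearer to this value. Among the cytosolic genes 6 were higher and 6 lower of 20 (60% called). Among the mitochondrial genes 2 were higher and 3 lower of 16 (31.25% called). No cytosolic gene had fewer than 3213 counts in a library (Wars in replicate 2), so the 1000-count set was not matched to their depth. The calls of Iars and Yars were lost when the TMM scaling used only genes with at least 10 counts (adjusted p 0.0770 and 0.0514 in the exact binomial test), which left 6 cytosolic genes higher and 4 lower. With the spread of these libraries included, edgeR's exact test called 1 of the 36, Lars2, against 0.456% of all genes (0.115% higher and 0.341% lower). At an unadjusted p of 0.05 in that test 860 of the 19078 genes tested passed. Of the 36 genes these were Lars2 and Vars2, and no cytosolic gene.

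The differences were small except for Lars2 and Vars2. Median log2 ratios of replicate 2 over replicate 1 were -0.02 for the cytosolic and -0.06 for the mitochondrial genes, beside -0.01 over all genes tested. The cytosolic ratios lay between -0.15 (Farsa) and 0.16 (Wars). After removal of a trend on GC content and length the cytosolic median was 0.01 and the mitochondrial one -0.02, so the sign of the cytosolic median is not settled. In order of size, the genes higher in replicate 2 were Lars2, Yars2, Wars, Rars, Farsb, Dars, Tars and Eprs, from 0.65 to 0.05. The genes lower in replicate 2 were Vars2, Aars2, Sars2, Farsa, Vars, Qars, Aars, Yars and Iars, from -0.43 to -0.05. GC content moved with these calls: it was 48.3 to 60.9% (median 56.6%) in the 9 lower genes and 41.2 to 53.6% (median 46.5%) in the 8 higher ones. With the trend removed, 14 of the 17 ratios were nearer to 0 and all 17 kept their sign.

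**Figure D3:**
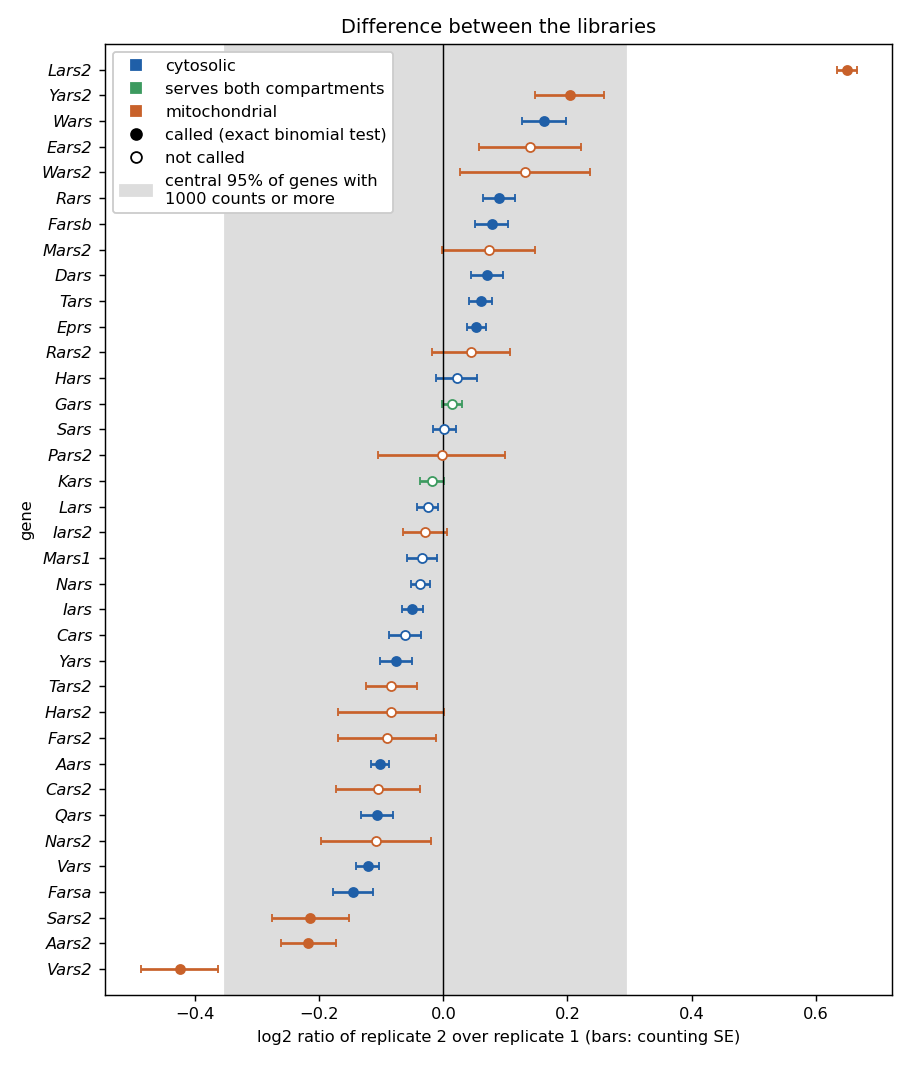
Log2 ratio of replicate 2 over replicate 1 for each gene, with its counting standard error, coloured by compartment and filled where the exact binomial test called it. The grey band holds the central 95% of genes with at least 1000 counts (-0.35 to 0.29); Lars2 at 0.65 and Vars2 at -0.43 lie outside it.

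Vars2 (ENSMUSG00000038838, chromosome 17, 35655634 to 35667592, minus strand) gave 1363 and 870 counts, that is 39.2 and 29.2 CPM. Its log2 ratio was -0.43 ± 0.06 (SE from counting error), called by the exact binomial test (adjusted p 2.47e-10) and not by the edgeR exact test (adjusted p 0.837). With the trend on GC content and length removed the ratio was -0.32. Its cytosolic counterpart Vars was lower as well, by -0.12 ± 0.02, and their genes lie 639 kb apart on chromosome 17.

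Lars2 (ENSMUSG00000035202, chromosome 9, 123366927 to 123462666, plus strand) encodes the mitochondrial leucine enzyme. It had 13752 counts in replicate 1 and 18500 in replicate 2, or 395 CPM (95% Poisson interval 389 to 402) and 621 CPM (612 to 630.0). Replicate 2 was higher by a log2 ratio of 0.65 ± 0.02 (edgeR exact test, adjusted p 0.000425). By coding transcript length its level was 203 and 320 TPM. Of the genes with at least 1000 counts, 11 had a larger ratio. Lars2 alone gave 41.6% of the counts of the 16 mitochondrial genes in replicate 1 and 54.0% in replicate 2. Without it the mitochondrial share of all gene counts was 0.0554% in replicate 1 and 0.0529% in replicate 2, lower in replicate 2 rather than higher.

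Higher counts in replicate 2 were also found for a pseudogene named for ribosomal RNA and for a further gene that matches Lars2 in sequence, both looked up after its values were seen. Gm42418 (chromosome 17, 39846958 to 39848788), in RefSeq a synonym of the pseudogene Rn18s-rs5, named for ribosomal RNA related sequence, had 1547 and 2600 CPM. Its log2 ratio was 0.75 ± 0.01 (edgeR exact test, adjusted p 7.81e-06). Gm15564 had 8.74 and 14.6 CPM, and a log2 ratio of 0.74 ± 0.11 (edgeR exact test, adjusted p 0.425). A stretch of 72 bases of the main Lars2 transcript (bases 3278 to 3349 of 3894) matches a Gm15564 transcript on the same strand with 98.6% identity. Gm26917, next to Gm42418, differed less, by 0.14 ± 0.02. No match between Lars2 transcripts and those of Gm42418 or Gm26917 was found by blastn. Only 0.196% of the 50-base stretches of Lars2 recur in other genes. The part of such sequence in the Lars2 counts was not tested, and a count per gene does not show where in the gene reads fell.

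Of the 36 genes, 8 share more than 5% of their 50-base stretches with other genes and 2 more than 10%, Iars2 (22.7%), whose exons overlap those of Rab3gap2, and Aars (13.8%), whose exons overlap those of Exosc6. Hars and Hars2 lie head to head and overlap by 198 bases. Eprs and Iars2 lie on opposite strands of chromosome 1 with 33648 bases between them. The strand setting of the counting is not given in the sources used here, so reads of overlapping genes on opposite strands may not be told apart.

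Promoter sequence was read to see what the cytosolic genes share. When amino acids are short, uncharged transfer RNA activates the kinase Gcn2 and the transcription factor ATF4, which binds a C/EBP-ATF response element with the core TGATGNAA. Promoters, from 250 bases before to 50 after the RefSeq start site (build GRCm38.p6), were found for 27 of the 36 genes. Those without an entry were Cars, Hars, Hars2, Lars, Nars, Pars2, Rars, Vars and Wars. On either strand, TGATGNAA occurred in 5 of 13 cytosolic promoters (Aars, Gars, Iars, Tars and Yars) and in 0 of 14 mitochondrial ones, while 3.97% of all 32851 promoter entries held it. The stricter TGATGCAA, contained in the first, occurred in 4 of these 13 (Aars, Iars, Tars and Yars) and in 0.895% of all entries. The E-box CACGTG, which reads the same on both strands, occurred in 4 of 13 cytosolic (Aars, Farsb, Iars and Tars) and 1 of 14 mitochondrial promoters (Ears2), and in 7.15% of all entries. These are letters in a window, not sites shown to be bound.

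The element is shown for Gars, the highest gene in TPM, for Iars, the highest of the complex in mean TPM, for Aars, the highest in mean CPM, and for Tars, which was added after its match was seen. Capitals mark the match to TGATGNAA, which in these genes lies on the opposite strand and so reads as TTGCATCA or TTTCATCA. The first line is the whole Aars promoter (chr8:111033592-111033891, plus strand), and the others are 40-base windows from Gars (chr6:55037955-55037994, plus strand), Iars (chr13:49682121-49682160, plus strand) and Tars (chr15:11399650-11399689, minus strand).
Aars: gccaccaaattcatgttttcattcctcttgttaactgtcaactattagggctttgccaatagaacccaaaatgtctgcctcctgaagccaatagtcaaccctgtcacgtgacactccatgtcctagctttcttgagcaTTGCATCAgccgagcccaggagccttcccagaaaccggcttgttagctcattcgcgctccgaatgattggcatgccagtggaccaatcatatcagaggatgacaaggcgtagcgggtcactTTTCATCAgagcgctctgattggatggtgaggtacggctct
Gars: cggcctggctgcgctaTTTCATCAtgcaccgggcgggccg
Iars: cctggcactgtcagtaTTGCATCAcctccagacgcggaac
Tars: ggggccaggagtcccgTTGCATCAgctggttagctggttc

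In Aars the first match begins 112 bases before the start site and the second 9 bases after it. The match begins 30 bases before the start in Gars, 15 before in Tars, 7 after in Iars and 3 after in Yars. The 5 cytosolic genes with the element had a median of 194 and 180.3 TPM and the 8 others with a promoter entry 154 and 154 TPM. Their ranges overlapped, from 89.0 to 438 TPM and from 80.3 to 218 TPM in replicate 1. In the exact binomial test 1 of these 5 genes was higher in replicate 2 (Tars) and 3 were lower (Aars, Iars and Yars). Gars was not called. This was 80% of the 5, beside 62.5% of the 8 others with a promoter entry. Of all genes tested 24.2% were called, and of genes with at least 1000 counts 39.5%. The calls of Iars and Yars were lost with TMM factors from genes with at least 10 counts. The edgeR exact test called none of the 5.

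Of the 12 genes of the amino acid response, a list that holds the sensor kinase, ATF4 and genes it is known to control, all were expressed. Asns, which makes asparagine, was the highest with 506 and 488.5 TPM, and Atf4 followed with 484 and 451 TPM. The cystine transporter gene Slc7a11 was the lowest with 0.747 and 0.730 TPM. In the exact binomial test 1 was higher in replicate 2 (Cebpb, log2 ratio 0.74 from 55 and 79 counts) and 5 were lower (Atf4, Ddit3, Asns, Psat1 and Phgdh, the largest Ddit3 at -0.37; 4 lower with TMM factors from genes with at least 10 counts), and the edgeR exact test called none of the 12 (1 at an unadjusted p of 0.05). The list median was -0.06. The 6 called genes were 50% of the list, beside 24.2% of all genes tested (11.2% higher and 13.1% lower). Among genes with at least 1000 counts 39.5% were called. An unadjusted p of 0.05 in the edgeR exact test was passed by 860 of the 19078 genes. Exons of Ddit3 overlap those of Mars1 on the opposite strand. The promoters of Asns, Chac1, Slc7a11 and Trib3 held TGATGNAA, 4 of 12.

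The 21 genes that work with the synthetases were all expressed. The elongation factor genes Eef1a1 (14960 ± 728 TPM), whose product carries charged transfer RNA to the ribosome, and Eef1g (1617 ± 69.9 TPM) were the highest, although 40.4 and 44.2% of their 50-base stretches recur in other genes. By exon length the scaffold genes of the multisynthetase complex had lower mean levels than each of the 8 enzymes. Aimp2 stood at 82.1 ± 1.03, Aimp1 at 46.8 ± 1.46 and Eef1e1 at 45.1 ± 0.504 TPM. In replicate 2 Aimp2 was above Qars (82.8 against 82.2 TPM). The order depends on the length used. By coding transcript length Aimp1 had 169 ± 5.89 TPM, above Qars (146 ± 7.44 TPM) and Mars1 (155 ± 2.43 TPM). On that scale Aimp2 (83.2 ± 1.35 TPM) and Eef1e1 (41.8 ± 0.316 TPM) stayed below the 8 enzymes. The amidotransferase subunit genes Gatb (12.5 ± 2.21 TPM), Gatc (13.5 ± 0.566 TPM) and Qrsl1 (19.4 ± 0.0838 TPM), which complete mitochondrial glutamine charging, lay near Ears2 (10.2 ± 0.676 TPM). Tarsl2, a further threonine enzyme gene, was the lowest of this list at 3.01 ± 0.136 TPM. In the exact binomial test 2 of the 21 were higher in replicate 2 (Gatb, the largest, at 0.37 ± 0.08, and Dtd2). Another 5 were lower (Aarsd1, the largest, at -0.20 ± 0.06, Tufm, Eef1a1, Eef1b2 and Eef1g), with a list median of 0.01. These 7 were 33.3% of the list, beside 24.2% of all genes tested and 39.5% of genes with at least 1000 counts. The edgeR exact test called none (0 at an unadjusted p of 0.05, beside 860 of the 19078 genes tested).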

How the data were processed

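PolyA RNA of 2 libraries was analysed. Per the labels' protocols, RNA was taken up in Trizol and 1 ug of total RNA entered an Illumina TruSeq preparation described as reverse-stranded. The submitters' processing notes name STAR 2.4.2a and mm10 (GRCm38). Each deposited file holds the authors' counts for 1 library, whole numbers per Ensembl gene without normalization. Counter, strand setting and annotation: not given in the sources used here. GENCODE M21 named 47224 of 47643 IDs and gave positions and lengths; promoters came from RefSeq (GRCm38.p6).

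CPM used library totals. TPM used summed exon lengths or the longest coding transcript, with a pseudocount of 1 on the log2 scale. With 1 library a side the quasi-likelihood test cannot be fitted, so an exact binomial test (scipy 1.17.1) on totals scaled by TMM factors from all genes was run over genes with at least 10 counts, with an adjusted threshold of 0.05. A pseudocount of 0.5 entered each log2 ratio. TMM factors from genes with at least 10 counts were tried first and replaced after the calls under both were seen. edgeR 4.0.16 (exact test, trended dispersion with both libraries as 1 group) and DESeq2 1.42.0 size factors were alternatives. The edgeR dispersion contains the differences it weighs. On counts simulated for replicate 2 against replicate 1 with sampling noise only (19058 genes), recovery by the binomial test was 89.6% at a 1.5-fold change, 97.0% at 2-fold and 100% at 4-fold, with 10 unchanged genes called; the edgeR exact test recovered 34.3, 97.0 and 100%. The changed genes were drawn only from genes with an expected count above the minimum for testing, so the recovery does not cover genes of the lowest counts. The real libraries differed beyond sampling noise, so these rates do not give the recovery or the false calls in the real counts. The trend on GC content and then length was removed by lowess (fraction 0.3). Transcripts were compared with blastn 2.17.0.

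All members are named by role; within a role the highest and lowest are given in full, and in the library comparison every called member. The members and lists were chosen with earlier results of these data known.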

Additional observations from a re-analysis of the deposited data

How the results depend on the processing

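As sets, by their medians or means, the cytosolic genes stayed above the mitochondrial ones under every alternative run. This does not hold for each gene, as Lars2 shows. The difference of their medians, 3.58 on the log2 scale, was 2.91 with coding transcript lengths, 3.22 in CPM, 3.07 with means over genes, 2.55 without genes whose exons overlap another gene and, as an alternative chosen after seeing the data, 3.85 without Lars2; leaving out 1 replicate gave 3.46 to 3.70. The median over pairings, 2.88, was 2.74 with coding transcript lengths, 3.0 in CPM and 2.95 with a pseudocount of 0.1, and 2.84 to 2.92 with 1 replicate left out. Lars/Lars2 reversed to -0.16 with coding transcript lengths and -0.12 in CPM. All 36 genes stayed expressed at 0.5, 5 and 10 CPM. Their share of counts, 0.746%, was 0.396% in TPM, 0.770% of protein-coding counts, 0.769% without mitochondrial genome genes and 0.695% without Lars2 (chosen after seeing the data), and 0.739 to 0.752% with 1 replicate left out.

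With edgeR's exact test in place of the exact binomial test, the calls among members fell to 1 higher and 0 lower (cytosolic 0 and 0, mitochondrial 1 and 0, each of the other lists 0 and 0), and over all genes from 2133 higher and 2491 lower to 22 and 65. With the GC and length trend removed the ratio was 0.0027 for Cars, 0.0039 for Fars2, 0.018 for Kars, 0.021 for Mars1, 0.025 for Pars2 and -0.013 for Rars2, each the reverse of its sign before, as was the cytosolic median at 0.011; none of these 6 genes had been called. Cars and Nars were also called when genes under 100 counts were left out, where fewer genes were tested. TMM factors from genes with at least 10 counts, used before the setting reported and replaced after both were seen, gave 8 members higher and 7 lower (2367 and 2305 over all genes), no longer called Iars and Yars, and reversed Pars2, not called either way, to 0.0079. No paired analysis was possible because the libraries form 1 group. Depth did not limit detection of any member, but 2 libraries limit every SD.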
